A study of Mus musculus with 2 samples.

Results

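The genes described here brake or start signalling through Ras and the MAP kinases in T cells: the phosphatase genes Dusp1, Dusp2, Dusp4, Dusp5, Dusp6 and Dusp10, the Sprouty genes Spry1 and Spry2, the related gene Spred1, and Rasgrp1. They were taken by gene name from the deposited gene table, and all 10 were found among its 55246 loci. The study sequenced RNA of Treg cells, the Foxp3-dependent CD4 T cells that restrain immune responses, taken from female mice at the lamina propria of the colon, which lies beneath the epithelium. There is 1 library from mice with wild-type Foxp3 (WT) and 1 from mice whose Foxp3 allele lacks exon 2 (Exon2KO, also written Foxp3∆2). The question behind the comparison is what the loss of this exon from Foxp3 does to gene expression in colonic Treg cells. Age, strain, sorting scheme and the number of mice behind each library are not given in the labels.

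A T cell receptor signal makes diacylglycerol, which recruits the exchange factor RasGRP1. It loads Ras with GTP, and Ras then drives the Raf, MEK and ERK kinases, while parallel branches activate the JNK and p38 kinases. These kinases switch on genes for their own inhibitors. The DUSP proteins remove phosphate from both the threonine and the tyrosine of an activated MAP kinase, and Sprouty and Spred proteins act further up, between receptor and Raf. Transcripts of several of these genes rise and decay quickly after a signal, so their level is often used as a trace of recent MAP kinase activity.

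The promoters of 3 members are shown because these genes are abundant in both libraries and differ in their ratio: Dusp10 was called lower in Exon2KO, Dusp1 was lower but short of the threshold, and Dusp5 was near 0. Each run covers 250 bases before and 50 bases after the RefSeq start site, on the gene's own strand, build GRCm38.p6. Capitals mark matches to the motifs searched.
Dusp10, chr1:184034131-184034430, plus strand: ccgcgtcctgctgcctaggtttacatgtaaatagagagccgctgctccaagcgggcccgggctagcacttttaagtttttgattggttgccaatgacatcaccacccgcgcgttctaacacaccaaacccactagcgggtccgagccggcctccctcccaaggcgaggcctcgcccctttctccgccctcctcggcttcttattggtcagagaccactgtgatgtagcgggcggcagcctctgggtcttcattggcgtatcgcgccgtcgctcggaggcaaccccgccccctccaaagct
Dusp1, chr17:26508423-26508722, minus strand: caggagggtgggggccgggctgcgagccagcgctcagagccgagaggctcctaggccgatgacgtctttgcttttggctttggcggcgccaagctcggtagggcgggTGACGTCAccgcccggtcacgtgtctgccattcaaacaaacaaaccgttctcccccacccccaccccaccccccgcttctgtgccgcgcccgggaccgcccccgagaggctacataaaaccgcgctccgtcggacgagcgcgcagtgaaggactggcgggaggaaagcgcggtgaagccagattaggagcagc
Dusp5, chr19:53528895-53529194, plus strand: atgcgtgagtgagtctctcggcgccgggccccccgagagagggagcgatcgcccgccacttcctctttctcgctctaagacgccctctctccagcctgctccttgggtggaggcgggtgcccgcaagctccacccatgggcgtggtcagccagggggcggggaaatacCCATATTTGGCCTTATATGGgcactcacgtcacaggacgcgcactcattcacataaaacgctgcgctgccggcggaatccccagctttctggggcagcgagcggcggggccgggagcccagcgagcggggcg

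Matches to 6 motifs were searched on both strands: the cyclic AMP response element TGACGTCA, the AP-1 site TGANTCA, the CArG box bound by serum response factor, the ETS site CCGGAAGT, the forkhead site GTAAACA and the TATA box TATAAA. The Dusp1 window holds a TGACGTCA beginning 143 bases before the start site, a motif found in 1.79% of 32817 promoter windows of that length. The Dusp5 window holds a pair of adjoining CArG boxes, beginning 82 and 72 bases before the start site, and 1.63% of windows hold at least 1. The Dusp10 window holds none of these letters. It surrounds the RefSeq start site at 184034381, and the start of the gene in the deposited table, 184013302, was not searched. RefSeq promoter entries were matched for 9 members, all but Dusp4, and none of the other 6 holds a match either. The other motifs occur in 7.81% (AP-1), 3.89% (ETS), 3.65% (forkhead) and 13.6% (TATA) of windows.

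Reads in genes totalled 16281133 for WT and 15412425 for Exon2KO, so 0 reads would allow a share of up to 1.84e-05% and 1.95e-05% (3 reads of the total). Neither genotype has a replicate, so no spread between samples can be given, and every interval below covers counting error only. Foxp3, the targeted gene, had 6991 reads in WT and 20946 in Exon2KO, but a count over the whole gene does not test the loss of 1 exon. Treg cell markers were present in both libraries, and 10 of 10 had reads, but single markers differed: 5 were called lower (Ikzf2 at -4.29, Lrrc32 at -2.27, Ikzf4 at -2.09, Tnfrsf18 at -1.59 and Tnfrsf4 at -1.37 on the log2 scale) and 1, Foxp3, higher at 1.56. Their median log2 ratio was -0.86. Their summed level, mostly that of Ctla4, Tnfrsf4 and Icos, was 16043 CPM (reads divided by the TMM-scaled library total, times a constant) in WT and 16362 in Exon2KO. The 11 T cell markers summed to 7108 and 5564 CPM, with 1 called lower and none at 0. Markers of other cells were present too. The 12 B and plasma cell markers summed to 63446 CPM in WT and 54104 in Exon2KO, with 1 called higher, 3 called lower and none at 0. The 14 epithelial markers summed to 98.6 and 501 CPM, with 11 called higher and Fabp2 at 0 in WT. The 7 gamma-delta T cell markers summed to 13.3 and 81.7 CPM, with 5 called higher, 1 called lower and none at 0. For the 8 CD8 and NK cell markers the sums were 2790 and 3993 CPM, nearly all of it Gzmb, with 1 called higher, 2 called lower, Ncr1 at 0 in WT and Eomes at 0 in Exon2KO. The 12 myeloid and mast cell markers summed to 41.8 and 45.7 CPM, with 1 called lower. Itgax and Mcpt4 were at 0 in both libraries, S100a8 and S100a9 in WT and Cpa3 in Exon2KO. The 12 stromal and endothelial markers summed to 80.9 and 78.8 CPM, with 3 called higher, 0 lower, and Cdh5 and Pdgfrb at 0 in WT. The part these cells have in the results below was not tested.

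Dusp10 was the member that differed most. Its transcript was 6.29-fold lower in the Exon2KO library, while Dusp1 was 1.87-fold lower and Dusp5, Dusp6 and Rasgrp1 lay close to 0 on the log2 scale. A gene was called when its split of reads departed from the TMM-scaled library sizes in an exact binomial test (2-sided, Benjamini-Hochberg adjusted p-value below 0.05) by at least 2-fold. The test compares the reads of these 2 libraries, not the genotypes. All 10 members passed the minimum of 10 reads over both libraries. Of them, 1 was called lower and 0 higher, against 6.61% and 7.20% of the 17363 genes tested (13.8% in either direction). With scaling by total counts 1481 genes were called higher and 983 lower, in place of 1251 and 1148. Among the 4740 genes with at least 1000 reads, where 7 of the members fall, 3.14% were called lower, 1.58% higher and 4.73% in either direction. In number of calls the members therefore stood near the background, and the result concerns Dusp10 by itself. Without regard to fold, the adjusted p-value was below 0.05 for 5 members lower and 1 higher, against 21.9% and 19.4% of all genes tested (41.3% in either direction), and 38.3% and 24.5% of those with at least 1000 reads (62.7% in either direction). The median log2 ratio of the members, taken as Exon2KO over WT after adding a prior count of 2, was -0.08, and that of all genes tested was 0.0035, with an interquartile range of -0.33 to 0.35.

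**Figure D1:**
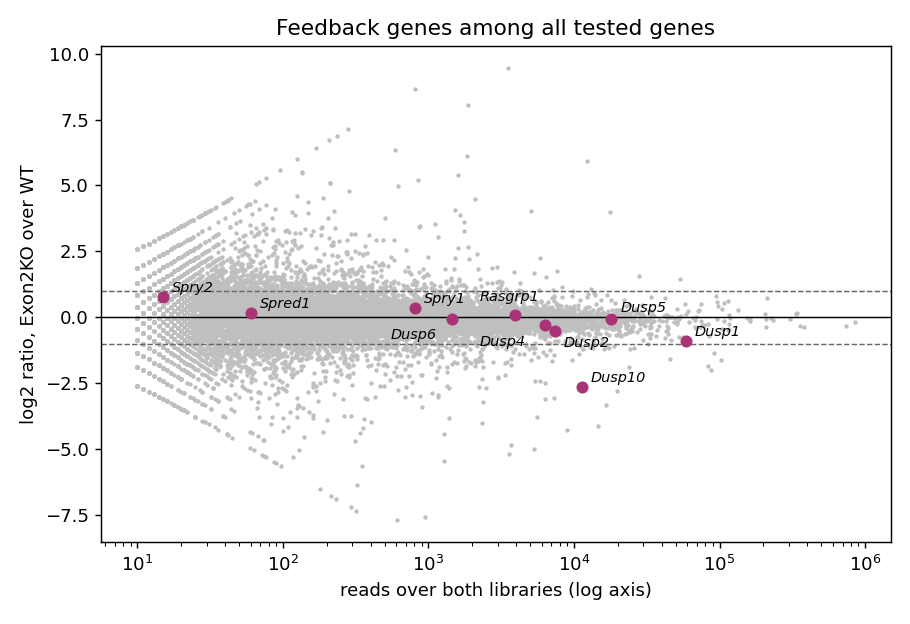
Log2 ratio of Exon2KO over WT (vertical axis) against the reads over both libraries (horizontal log axis) for the 17363 genes tested, with the 10 members marked and dashed lines at 2-fold. Dusp10 lies below the lower line at -2.65, and the other 9 members lie between the lines.

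Dusp10 encodes a phosphatase that acts mainly on JNK and p38. The gene (ENSMUSG00000039384) lies on chromosome 1, 184013302 to 184075636 on the plus strand, and GENCODE M21 gives it 2 protein-coding transcripts with different start sites, which the gene-level count does not separate. The WT library had 9746 reads of Dusp10 and the Exon2KO library 1578, or 621 and 98.7 CPM. WT thus had by far the more reads, and the difference is many times the counting error. The log2 ratio was -2.65 (95% interval -2.73 to -2.58). In bulk RNA, fewer cells that express a gene and less RNA per cell cannot be told apart. Among the 472 most abundant genes (10000 reads or more in the libraries together), 28 were called and 3 had a lower ratio than Dusp10. These were Penk at -4.12, Cd83 at -3.33 and Pdcd1 at -2.80, named here after their values were seen.

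With an assumed biological coefficient of variation (the relative spread between samples) of 0.2, edgeR's exact test gave Dusp10 an adjusted p-value of 1.67e-07. At an assumed 0.4 it was 0.15, which ends the call. For Dusp10 the change computed by the authors was also -2.65 on the log2 scale. Their adjusted p-values come from the same WT and Exon2KO libraries, which hold no measured spread between samples. Those p-values are therefore no separate evidence for the Dusp10 call and are not listed here.

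The surroundings of Dusp10 were read as well. A gene on the opposite strand, 1700056E22Rik, lies within its span (184033030 to 184034301). It begins at 184034301, inside the Dusp10 promoter window shown above, and had 115 reads in WT and 40 in Exon2KO. Its log2 ratio was -1.50 (-2.11 to -1.02) and it was called lower. Whether the counting used strand is not given in the sources used here, so reads of this pair cannot be told apart where they overlap. The nearest tested protein-coding genes on either side, Taf1a and Marc2, are 603104 and 737432 bases away. Taf1a had 157 and 220 reads, at 0.46 (0.16 to 0.76), and Marc2 had 1537 and 1335, at -0.23 (-0.34 to -0.12). Neither was called.

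**Figure D2:**
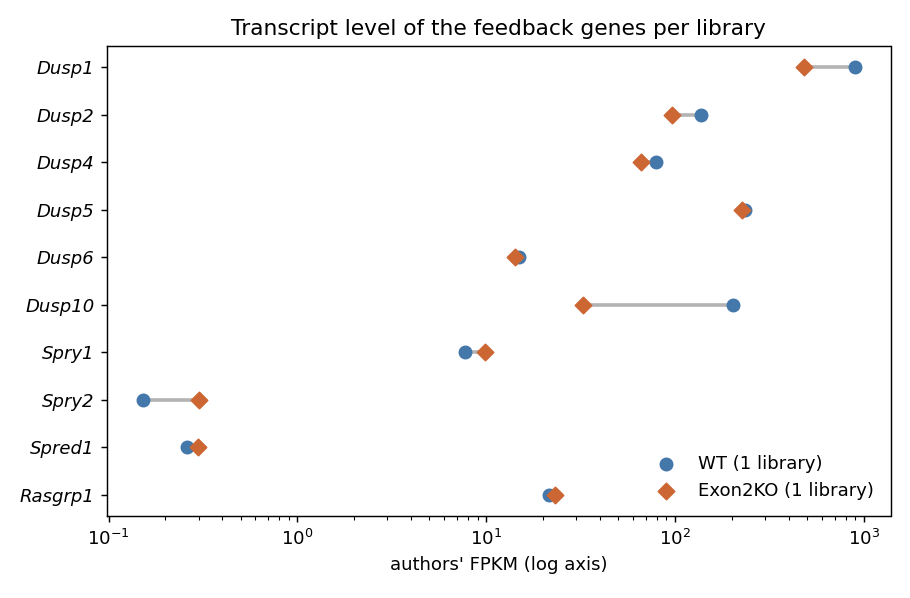
Level of the 10 members in the WT library (circles) and the Exon2KO library (diamonds), as the authors' FPKM on a log axis, joined by a grey line for each gene. Dusp1 is highest in both libraries, and the widest gap among the abundant genes is that of Dusp10, from 203 to 32.6 FPKM.

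Dusp1, Dusp2, Dusp4 and Dusp5 encode the inducible phosphatases of the nucleus. DUSP1 acts on p38, JNK and ERK and is made within minutes of a stimulus. Dusp1 (ENSMUSG00000024190, chromosome 17, 26505590 to 26508519, minus strand) had 38106 reads in WT and 20759 in Exon2KO. It was thus the most abundant member in both libraries, with more reads in WT. The log2 ratio was -0.90 (-0.93 to -0.88), short of the 2-fold threshold. At a threshold of 1.5-fold Dusp1 was called lower together with Dusp10, 2 of 10 members, against 10.6% of all genes tested and 7.85% of those with at least 1000 reads. This call of Dusp1 does not hold relative to the summed T cell markers, where its log2 ratio is -0.55, or in edgeR's exact test at an assumed coefficient of variation of 0.2, where its adjusted p-value is 0.234.

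Dusp2, whose product is a nuclear phosphatase of activated lymphocytes, had 4316 reads in WT and 3067 in Exon2KO. Its log2 ratio was -0.52 (-0.59 to -0.45). Dusp4, whose product acts on ERK and JNK in the nucleus, had 3435 and 2878 reads, at -0.28 (-0.35 to -0.21). In both genes the WT library was the higher, by less than 2-fold, but relative to the summed T cell markers Dusp2 was at -0.17 and Dusp4 changed sign, to 0.071. Dusp5, whose product is specific for ERK, had 9180 and 8852 reads, at -0.08 (-0.12 to -0.04). Its sign changed with scaling by total counts (0.027) or by T cell markers (0.27).

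Dusp6 encodes the cytoplasmic phosphatase specific for ERK, and its transcript level is widely used as a readout of ERK activity. It had 740 reads in WT and 710 in Exon2KO, at -0.09 (-0.24 to 0.06), so at this depth no difference was detectable, and its sign changed under the same alternatives. Its level was far below that of the nuclear genes, at 14.98 FPKM (reads per gene length and depth, as deposited) in WT and 14.2 in Exon2KO.

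**Figure D3:**
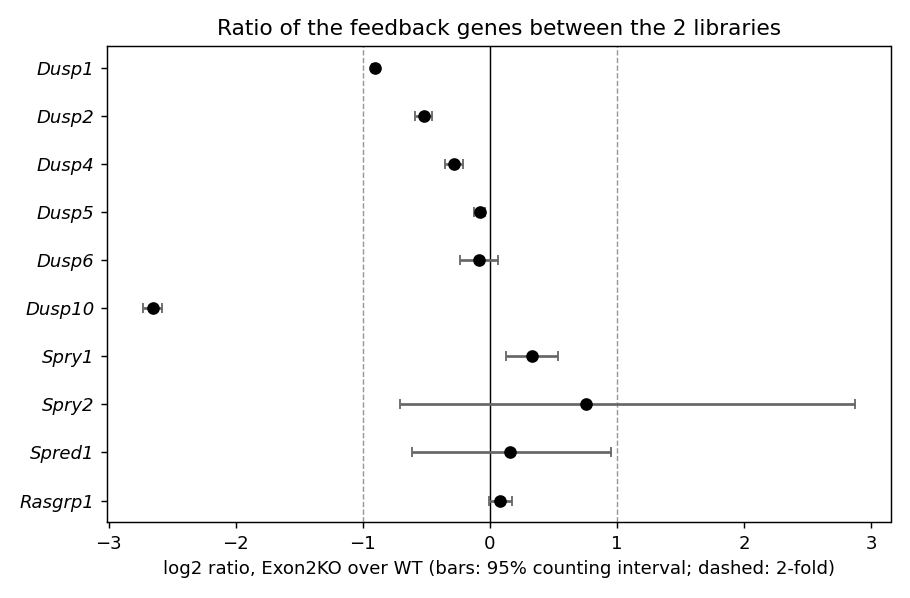
Log2 ratio of Exon2KO over WT for each member (points) with its 95% counting interval (bars), and dashed lines at 2-fold. Dusp10 at -2.65 lies alone beyond a dashed line, and the intervals of Dusp6, Spry2, Spred1 and Rasgrp1 include 0.

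Spry1 and Spry2 encode Sprouty proteins, which restrain Ras-ERK signalling downstream of receptor tyrosine kinases and, for SPRY1, of the T cell receptor. Spry1 had 353 reads in WT and 453 in Exon2KO. Its log2 ratio was 0.33 (0.13 to 0.54), or 0.68 relative to the summed T cell markers, and it was not called since the ratio is below 2-fold. Spry2 had 5 and 10 reads, at 0.76 (-0.71 to 2.87). Spred1, whose product holds the Ras inhibitor neurofibromin at the membrane, had 28 and 32 reads, at 0.16 (-0.61 to 0.95). At this depth no difference was detectable for Spry2 and Spred1. Per length, Spry1 stood at 7.70 and 9.80 FPKM, and Spry2 at 0.15 and 0.30.

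Rasgrp1 encodes the diacylglycerol-activated exchange factor that loads Ras after T cell receptor engagement. Its reads numbered 1904 in WT and 2053 in Exon2KO, at 0.08 (-0.01 to 0.17). The interval includes 0 with TMM scaling, but the ratio was 0.19 with total counts and 0.44 relative to the summed T cell markers, so its place near 0 depends on the scaling.

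By FPKM, the order of the members in the WT library was Dusp1 (896), Dusp5 (235), Dusp10 (203), Dusp2 (137), Dusp4 (79.5), Rasgrp1 (21.6), Dusp6 (14.98), Spry1 (7.70), Spred1 (0.26) and Spry2 (0.15). In the Exon2KO library Dusp1 stood at 484, Dusp5 at 225, Dusp2 at 96.2, Dusp4 at 66.0, Dusp10 at 32.6, Rasgrp1 at 23.0, Dusp6 at 14.2, Spry1 at 9.80, Spry2 at 0.30 and Spred1 at 0.30. Dusp10 moved from the third place to the fifth. The last pair rests on 10 and 32 reads, and its order was not resolved. Among 22046 protein-coding genes, Dusp10 ranked 259 by FPKM in WT and 1470 in Exon2KO, Dusp1 ranked 51 and 91, and Dusp5 ranked 218 and 211. Dusp5 and Dusp10 stood side by side in WT, while in Exon2KO the level of Dusp5 was 6.90 times that of Dusp10.

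The 10 genes of the MAP kinase phosphatase family, 6 of them members, were summed by FPKM to describe the makeup of this pool. The sum was 1571 FPKM in WT and 925 in Exon2KO. Dusp1 gave 57.0% of it in WT and 52.3% in Exon2KO, Dusp5 14.98% and 24.3%, and Dusp10 12.9% and 3.52%. The 3 genes for phosphatases of JNK and p38 (Dusp8, Dusp10 and Dusp16) together gave 13.1% in WT and 4.04% in Exon2KO, a 5.53-fold lower sum. The 4 nuclear genes had a 1.55-fold lower sum, and most of that drop was in Dusp1, at 896 FPKM in WT and 484 in Exon2KO. The 3 genes for cytoplasmic ERK phosphatases (Dusp6, Dusp7 and Dusp9) stood at 17.4 and 16.9 FPKM. Dusp10 makes up most of the JNK and p38 sum, 203 of 207 FPKM in WT and 32.6 of 37.4 in Exon2KO. Dusp16, whose product acts mainly on JNK, had 305 and 448 reads, at 0.53 (0.31 to 0.74) and not called, and Dusp8 had 72 and 89.

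**Figure D4:**
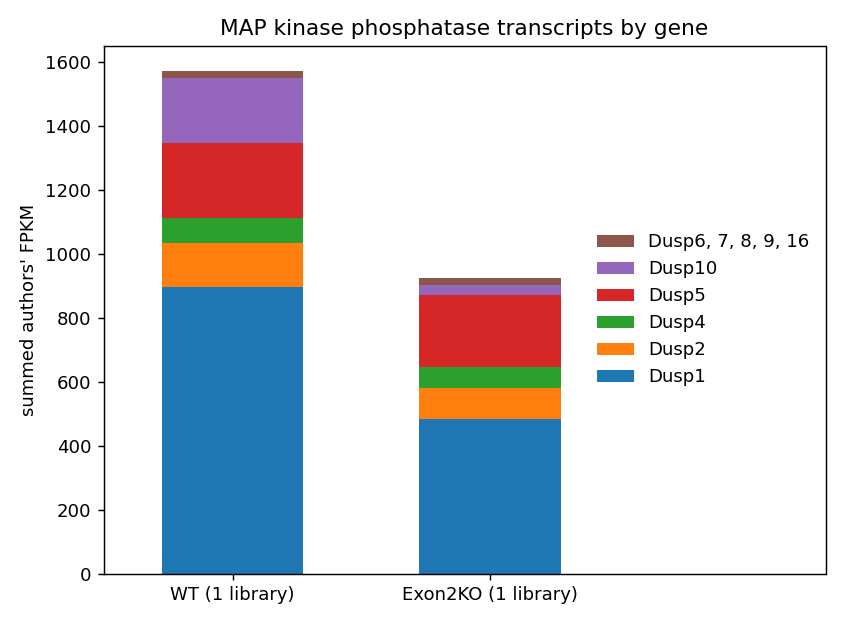
Summed FPKM (vertical axis) of the 10 MAP kinase phosphatase genes in the WT and the Exon2KO library, stacked by gene, with the 5 least abundant genes joined. The column is 1571 high in WT and 925 in Exon2KO. The Dusp1 part shrinks from 896 to 484 and the Dusp10 part from 203 to 32.6.

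Dusp14 was the other DUSP gene called. It encodes a small phosphatase outside the MAP kinase phosphatase family that restrains T cell receptor signalling. Its reads numbered 2143 in WT and 341 in Exon2KO, at -2.67 (-2.85 to -2.51). Dusp14 (chromosome 11, 84048041 to 84069261, minus strand) thus had nearly the same ratio as Dusp10 on another chromosome. In edgeR's exact test its adjusted p-value was 1.97e-07 at a coefficient of variation assumed to be 0.2, and 0.146 at 0.4. Of the 9 atypical DUSP genes tested (of 14), Dusp14 was called lower and 0 were called higher, and 8 lay below 0, the median being -0.21. Among the other MAP kinase phosphatase genes, 3 of 4 were tested and 0 were called, with a median of 0.27 (lowest 0.08, highest 0.53).

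The kinases on which these phosphatases act were counted in the same way. Of 16 genes of the Ras, Raf, MEK and ERK cascade, all 16 were tested and 0 were called, with a median log2 ratio of -0.07. Ksr2, a scaffold gene, had the ratio furthest from 0 in this list, on 10 and 2 reads (95% interval -5.58 to -0.12). Of 10 JNK and p38 pathway genes tested (of 11), 1 was called higher and 1 lower, with a median of 0.0047. Mapk13, which encodes p38 delta, rose from 10 to 111 reads, at 3.21 (2.51 to 4.55). Of the marker sums given above, those of epithelial, gamma-delta T and CD8 and NK cells were also higher in Exon2KO. Those of T cells and of B and plasma cells were lower. Whether Mapk13 follows any of these was not tested. Mapk12, which encodes p38 gamma, fell from 46 to 6 reads, at -2.61 (-4.48 to -1.73).

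Other regulators of Ras were also counted. Of 7 other exchange factor genes, 1 was called lower: Rasgrf1 had 58 reads in WT against 1 in Exon2KO, so that only the bound of the 95% interval on the side of 0, -3.35 on the log2 scale, is given. The median of these 7 was -0.21. Of 10 genes for Ras GTPase-activating proteins, Rasal1 was called lower, with 38 and 12 reads, at -1.54 (-2.76 to -0.72). In that list 8 of 10 had a ratio below 0. The median was -0.29, within the interquartile range of all genes tested (-0.33 to 0.35). Of the 4 other Sprouty and Spred genes 2 were tested and 0 called. Spred2 had 83 and 75 reads and Spred3 had 5 and 6. Of 14 other inhibitors of the pathway 0 were called. Their median was -0.22, with Ptpn22 at -0.50 (-0.55 to -0.44) and Dok3 at -0.62 (-1.06 to -0.21).

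Diacylglycerol kinases remove the lipid that recruits RasGRP1. Of 12 genes tested (of 13) for these kinases and for phospholipase C gamma and its neighbours in the pathway, 9 had a ratio below 0. The median was -0.39, and 1 was called higher. This was Dgkg, which rose from 55 to 301 reads, at 2.38 (2.01 to 2.87). Dgka, the kinase gene with the most reads and named here after its value was seen, had 3553 reads in WT and 1858 in Exon2KO, at -0.96 (-1.04 to -0.88), short of 2-fold.

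Transcripts that respond to ERK went both ways. Of 11 tested (of 14), 1 was called higher and 1 lower, and the median was 0.02. Fos, an immediate early gene, had 25557 reads in WT and 26446 in Exon2KO, at 0.02 (-0.0023 to 0.05). Egr1, another, had 3818 and 3858 reads, at -0.01 (-0.08 to 0.05). Both were named after their values were seen. Phlda1, of the same list and named in the same way, had 841 and 646 reads, at -0.41 (-0.56 to -0.26), and Etv5, likewise, had 72 and 123, at 0.73 (0.31 to 1.19). Neither was called. Myc, a driver of cell growth, fell from 1631 to 460 reads, at -1.85 (-2.01 to -1.70). Ccnd1, a cyclin gene, was called higher on 9 and 24 reads, at 1.22 (0.23 to 2.68). Over the 10 lists of other genes of the pathway, 3 genes were called higher and 5 lower. These 8 are 8.51% of the 94 genes tested in the lists. The share was 13.8% over all genes tested and 4.73% over those with at least 1000 reads. The lists were not matched for depth, so whether they held more calls than like genes is not resolved. With an assumed coefficient of variation of 0.2 in edgeR's exact test, the calls of Ccnd1 (adjusted p-value 0.359) and Rasal1 (0.109) were lost. At 0.4 those of Dusp14, Mapk12 (0.252), Mapk13 (0.0611), Dgkg (0.274) and Myc (0.643) were lost too, and Rasgrf1 stayed (0.00736).

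**Figure D5:**
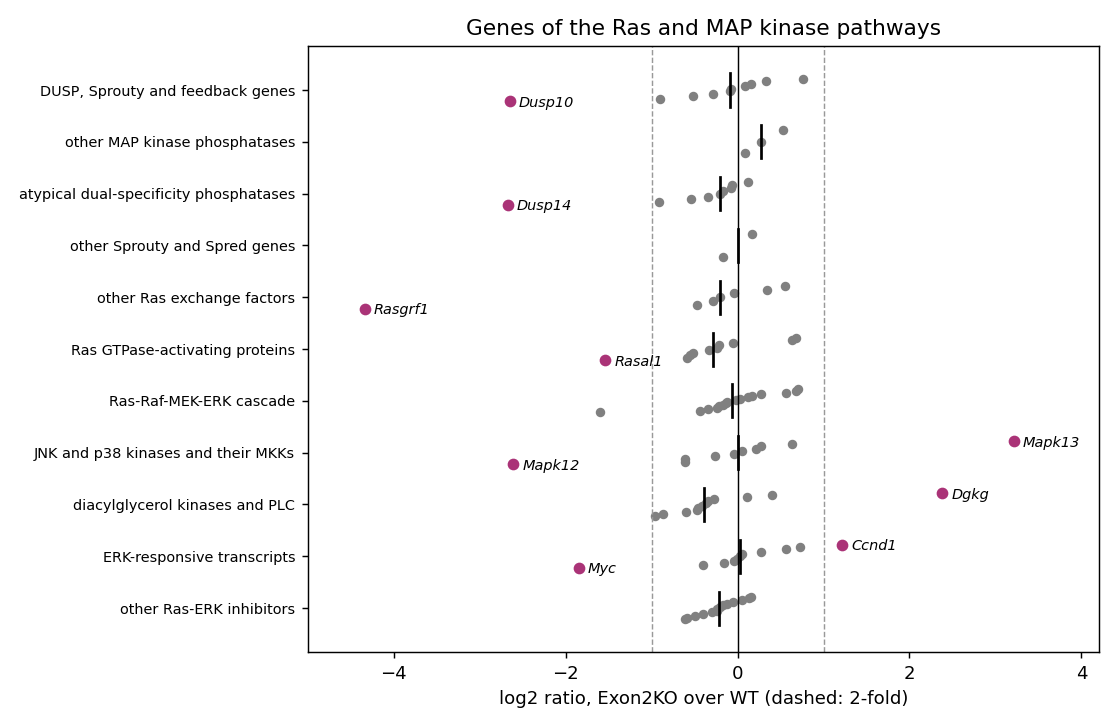
Log2 ratio of Exon2KO over WT (horizontal axis) for the tested genes of the members and of 10 pathway lists (rows), with called genes coloured and named, black bars at the medians and dashed lines at 2-fold. Dusp10 and Dusp14 lie near each other at -2.65 and -2.67, and most other genes lie between the dashed lines.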

How the data were processed

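Reads per gene were measured in 1 WT and 1 Exon2KO library. The authors deposited raw read counts, FPKM, a scaled count signal, and their own log2 fold change, p-value and adjusted p-value. HISAT2 2.0.5, StringTie 1.3.3b, featureCounts 1.5.0-p3, DESeq2 1.16.1 and mm10 are named per the submitters' processing notes, without their roles. The use of strand is not given in the sources used here. Coordinates are as deposited and equal GENCODE M21 (GRCm38) for 9 members; that annotation extends Dusp1 further, to 26562128.

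A quasi-likelihood test in edgeR could not be fitted to single libraries. Counts were scaled by TMM (edgeR 4.0.16, R 4.3.3). Each gene with at least 10 reads was compared by a 2-sided exact binomial test (the smaller tail times 2), adjusted over all 17363 genes, and called at an adjusted p-value below 0.05 and at least 2-fold. Log2 ratios use a prior count of 2, and their Clopper-Pearson 95% intervals use none. Tables were made with Python 3.11.15, numpy 2.4.6, pandas 2.3.3 and scipy 1.17.1. The deposited counts were used as given, with no correction by molecular identifiers. Intervals cover counting error only, since each genotype has 1 library. Alternatives were other scalings, read minimums, fold thresholds, prior counts and assumed spreads. Members, the 10 pathway lists and the 8 marker lists were chosen with earlier results of these data known. Named are all members, in each pathway list every called gene (or, with none, the genes with the most reads and the ratio furthest from 0), and genes said to be named after their values were seen. Of these genes, 1 is not reported here.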

Additional observations from a re-analysis of the deposited data

How the results depend on the processing

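Against 2399 genes called over the whole table, a minimum of 50 reads gave 1334, since fewer genes were tested, and fold thresholds of 1.5 and 4 gave 3675 and 907, as the thresholds imply. Assumed coefficients of variation of 0.2 and 0.4 in edgeR's exact test gave 1115 and 164. Of the members, 1 was called in the main comparison, 2 at 1.5-fold (Dusp1 and Dusp10) and 0 with an assumed coefficient of variation of 0.4, which enters the p-value and not the ratio. With every other scaling, minimum and threshold run, the count of members stayed at 1. Over all ratio alternatives Dusp10 ranged from -2.65 to -2.30 and Dusp1 from -0.90 to -0.55.

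With scaling by total counts, which moved the median of all tested genes from 0.0035 to 0.108, Dusp5 changed sign to 0.027, Dusp6 to 0.019 and the median of the Ras-Raf-MEK-ERK cascade to 0.038. Relative to the summed T cell markers, an alternative chosen after seeing the data, Dusp4 changed sign to 0.071, Dusp5 to 0.27 and Dusp6 to 0.27. A scaling shifts all log2 ratios nearly alike, so the member ratios that changed sign are those just below 0. The list medians were not recomputed on the T cell marker scale. Those markers summed to a log2 ratio of -0.35, larger in size than most list medians below 0. The sign of such medians therefore depends on the scaling. Depth limits Spry2 and Spred1. No paired analysis was possible because WT and Exon2KO are single libraries, and neither could be left out.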
